A study of Homo sapiens with 27 samples.

Results

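The proteasome subunit genes are the 48 of 27115 measured genes whose symbol is PSMA, PSMB, PSMC, PSMD, PSME, PSMF or PSMG followed by a number, and their RNA was compared in 27 libraries of SIRT3 knockdown in lymphoma cell lines. By role they are 7 alpha subunits of the core, 7 constitutive beta subunits of the core, 3 immunoproteasome beta subunits, 2 core subunits known from germ cells or thymus, 6 ATPases of the cap, 11 other cap subunits, 5 activators and inhibitors and 7 assembly chaperones. Karpas422, OCI-Ly1 and HBL1 are established lines of diffuse large B-cell lymphoma (DLBCL), and each stands here for itself and not for a lymphoma subtype. Each line received a scrambled control shRNA (shCTRL) or 1 of 2 shRNAs against SIRT3, a mitochondrial protein deacylase (shSIRT3-1 and shSIRT3-2), and RNA was taken on day 8. All 9 groups, controls included, share the lentiviral vector with its puromycin resistance and yellow fluorescent protein, and each group has 3 replicates whose independence the labels do not state, so p-values measure the spread between these samples, which may be technical.

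The proteasome degrades proteins that carry ubiquitin chains. Its barrel-shaped core holds the proteolytic sites between rings of alpha and beta subunits, and a cap of ATPases and scaffold subunits recognises, unfolds and feeds in the substrate. Cells exposed to interferon, and many lymphoid cells without it, replace the 3 catalytic beta subunits by PSMB8, PSMB9 and PSMB10 to form the immunoproteasome, which shapes the peptides shown on MHC class I. The transcription factor NFE2L1 raises the transcription of proteasome genes when the proteasome is inhibited.

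The deposited values were used as CPM, reads scaled to a fixed library total, and tests ran on log2(CPM + 0.1) for genes with at least 1 CPM in at least 3 of the libraries fitted. A gene was called at a limma adjusted p (Benjamini-Hochberg over all genes tested) under 0.05, and fold changes are on this log2 scale, which understates the change of low genes. The libraries held 28694398 to 53405456 reads on genes, with a median of 45669254. These reads made up 40.3% to 45.6% of the total used for scaling, and a lower share lowers all CPM of a library alike. In HBL1 the share was 42.61%, 43.11% and 40.31% with shSIRT3-1, against 45.12%, 45.12% and 43.89% in the controls. SIRT3 itself was 9.14 to 16.4 CPM in the control libraries, 1.06 to 2.79 with shSIRT3-1 and 2.84 to 6.24 with shSIRT3-2, with no overlap between control and knockdown in any line. The B-cell markers CD79A (136 to 668 CPM), CD79B (255 to 691), MS4A1 (144 to 740) and PAX5 (136 to 608) were present in every library, whereas the myeloid markers summed to at most 1.26 CPM in any library. Of the B-cell markers, CD22 fell by 2.12 on the log2 scale with shSIRT3-2 (SE 0.41, limma adjusted p = 3.0e-04), PAX5 by 0.55 (adjusted p = 0.02) and MS4A1 by 0.52 (adjusted p = 0.027), and CD79B rose by 0.38 with shSIRT3-1 (adjusted p = 0.0036). T-cell markers summed to 37.6 to 43.5 CPM in the Karpas422 controls, of which CD3G made up 35.8 to 41.4, and to 18.6 to 31.8 with shSIRT3-1 and 30.7 to 40.3 with shSIRT3-2, and to at most 2.82 in the other lines. Epithelial markers summed to at most 7.43 CPM, in HBL1. The part of these markers in the results on proteasome genes was not tested. In bulk RNA, fewer cells of a kind and less RNA per cell cannot be told apart.

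Of the libraries, 3 stand apart, by their proteasome genes or by their correlation with their group. In OCI-Ly1 shCTRL replicate 1 the median proteasome gene lay 0.53 above the other replicates of its group on the log2 scale, while the median of all genes differed by 0.00, and in OCI-Ly1 shCTRL replicate 3 it lay 0.39 below. HBL1 shSIRT3-1 replicate 3 correlated least with its group (mean r of 0.958 over genes). Its median proteasome gene deviated by -0.23, much as that of HBL1 shCTRL replicate 3 did (-0.24). In the remaining libraries that deviation lay between -0.24 and 0.18.

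Of the 48 genes, 47 passed the filter over all libraries. PSMB11, the thymus-specific catalytic subunit, had 0 reads in 26 libraries and 2 reads in the other. Reads of genes with near-identical copies may have been split or lost in counting: 17 of the 48 genes have 44 annotated pseudogenes named after them, 13 of them for the cap ATPase PSMC1. Antisense transcripts are counted beside PSMA3 (PSMA3-AS1, 14.3 to 72 CPM), PSMB8 (PSMB8-AS1, 2.87 to 13.6 CPM), PSMD5, PSMD6 and PSMG3, and since use of strand is not stated, reads of such pairs cannot be told apart.

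The upstream sequences of the catalytic genes and of the activator subunit PSME2 are shown because the antioxidant response element (ARE), which NFE2L1 and related factors bind, and the interferon-stimulated response element (ISRE) are the elements through which proteasome and immunoproteasome genes are known to be regulated. Searches covered both strands of the 250 bases before the start of each MANE Select transcript (GENCODE on hg19). A loose form of the ARE core, written TGANNNNGC with any base at N, is called ARE core here. It was found in 26 of the 48 genes (54.2%) against 35.1% of the windows of 18922 genes. The ISRE core, written as GAAA, any 2 bases and GAAA again, was found in PSMB4, PSMB10, PSME2 and PSMG4 (8.33%, against 2.84% of all windows). These matches are letters in a window and not shown to be bound. In these excerpts the gene's own strand is written 5′ to 3′, and capitals mark the match on either strand.

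PSMB5 (chr14:23504110-23504137, minus strand, ARE core): tctttgctagGCGTTCTCAgaattagtt
PSMB6 (chr17:4699430-4699458, plus strand, ARE core): ccaaagagcgTGACAGAGCgctttacgac
PSMB7 (chr9:127177777-127177805, minus strand, ARE core): cgtttgccccGCCCCTTCAgcccccgttg
PSMB8 (chr6:32812001-32812029, minus strand, ARE core): agtgggctttTGAAGGCGCctgttccttt
PSMB9 (chr6:32821811-32821839, plus strand, ARE core): gggcggggctGCCTCGTCActtgtctcgg
PSMB10 (chr16:67970755-67970784, minus strand, ISRE core): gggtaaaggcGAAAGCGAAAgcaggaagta
PSME2 (chr14:24615828-24615857, minus strand, ISRE core): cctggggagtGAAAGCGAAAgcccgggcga

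The constitutive catalytic genes PSMB5, PSMB6 and PSMB7 each hold a match to this loose ARE pattern in the window, at 18, 19 and 74 bases before the transcript start. In PSMB8 and PSMB9 it lies at 195 and 148 bases, and PSMB10 and PSME2 carry the same 10 letters of an ISRE core at 21 and 28 bases. These distances are from the MANE start. The RefSeq windows of PSMB5, PSMB6 and PSMB7 are not the same as those searched, so their distances depend on the start chosen and are not compared with those of PSMB8 and PSMB9.

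Over the 3 lines, proteasome genes moved little, with more rises than falls for both shRNAs. The largest rise was that of the catalytic subunit PSMB6 (0.54) with shSIRT3-1 and of the cap subunit PSMD8 (0.49) with shSIRT3-2. With shSIRT3-1, 9 of 47 genes rose and 4 fell, where 15.6% of the 13076 genes tested rose and 22.3% fell, and the median log2 fold change was 0.09 against -0.05 for all genes. With shSIRT3-2, 14 rose and 4 fell (background 16.3% and 21.7%), with a median of 0.17 against -0.03. The changes were small, with log2 fold changes of -0.38 to 0.54 over the 47 genes with shSIRT3-1 and -0.51 to 0.49 with shSIRT3-2. The value of -0.51, 1 of the 4 falls with shSIRT3-2, was that of PSMA8. This gene held 7 to 28 reads per library in Karpas422 and 1 to 4 in HBL1, so only OCI-Ly1 measures it above the floor. The same direction was called with both shRNAs for 6 rises (PSMB6, PSMD1, PSMD3, PSMD11, PSMD12 and PSMF1; 7.65% of all genes) and 2 falls (PSMD10 and PSMG2; 10.5% of all genes). Both shRNAs are compared with the same control libraries, so their values are given side by side. Without OCI-Ly1 shCTRL replicate 1 the rises became 15 with shSIRT3-1 and 22 with shSIRT3-2, and without OCI-Ly1 shCTRL replicate 3 the calls with shSIRT3-1 became 6 rises and 8 falls, so that falls outnumbered rises. The same order held without replicate number 3 of every group, with 4 rises and 6 falls. Under quantile normalization, which moved the median of all genes to 0.03 with each shRNA, 15 rose and 3 fell with shSIRT3-1, and over all genes the calls turned from 2922 lower and 2039 higher to 2324 lower and 2892 higher.

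**Figure D1:**
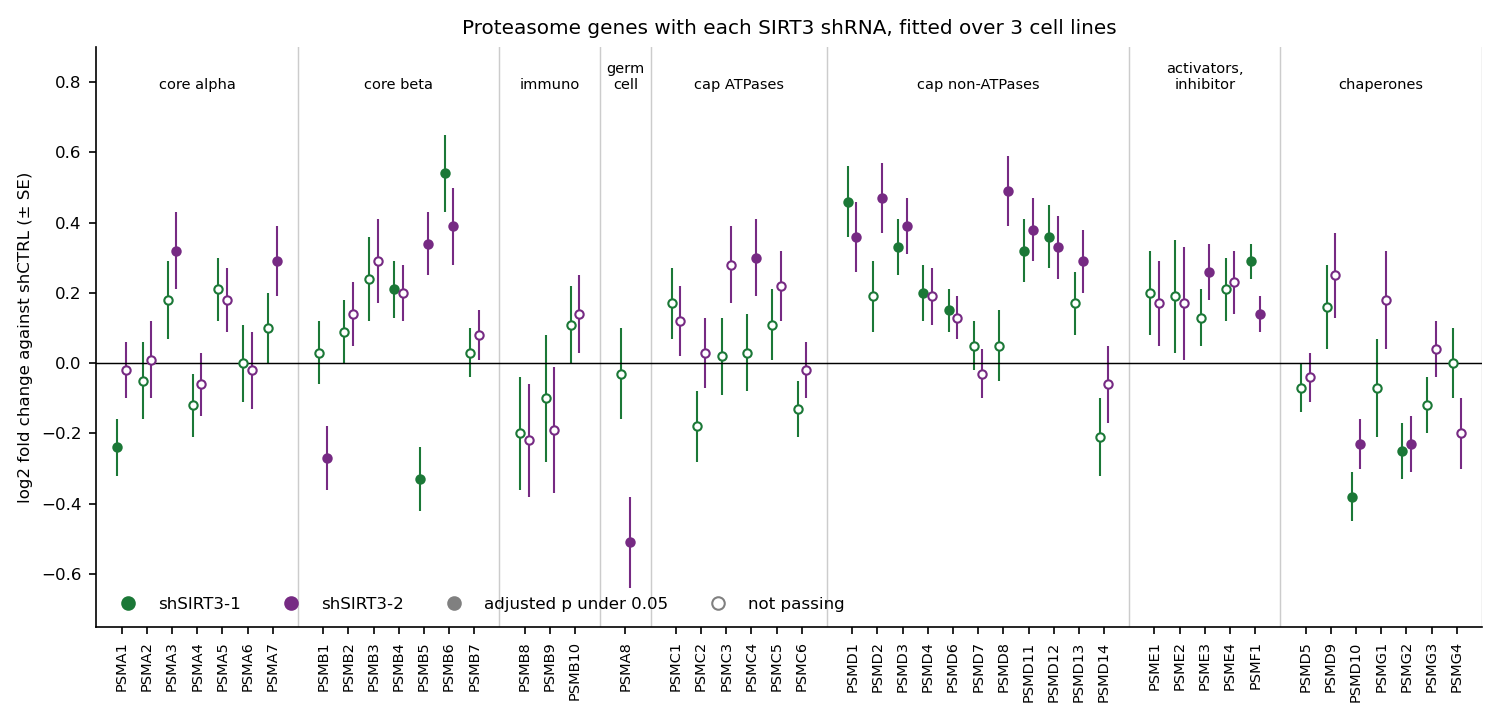
Log2 fold change against shCTRL (± SE, limma over 27 libraries) of the 47 tested proteasome genes, by class, with shSIRT3-1 in green and shSIRT3-2 in purple; filled points passed an adjusted p under 0.05. Cap non-ATPases lie mostly above 0 with both shRNAs, PSMB5 lies at -0.33 and 0.34, and the 3 immunoproteasome genes have no filled point.

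The constitutive core was uneven. Of its 14 genes, 2 rose and 2 fell with shSIRT3-1 (median log2 fold change 0.06), where 15.6% of all genes rose and 22.3% fell. With shSIRT3-2, 4 rose and 1 fell (median 0.16), where 16.3% of all genes rose and 21.7% fell. Its 3 catalytic subunits differed from one another, and they are given library by library.

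PSMB6, the subunit with caspase-like activity, was 23.8, 18 and 28 CPM in the Karpas422 controls, 39.4, 37.8 and 39.3 with shSIRT3-1, and 39.9, 38.6 and 38.8 with shSIRT3-2. OCI-Ly1 had 61.3, 28.4 and 38.9 CPM with shCTRL, 61, 55.4 and 58.5 with shSIRT3-1, and 52.2, 44.3 and 50.9 with shSIRT3-2. In HBL1 the values were 33.7, 29.8 and 27.3 CPM with shCTRL, 37.9, 33.3 and 45.3 with shSIRT3-1, and 33.7, 31.2 and 34.8 with shSIRT3-2. Control and knockdown did not overlap in Karpas422, and they overlapped in OCI-Ly1, where control replicate 1 was the highest of all, and in HBL1. Over the 3 lines PSMB6 rose by 0.54 (SE 0.11, limma adjusted p = 5.6e-04) with shSIRT3-1 and by 0.39 (SE 0.11, adjusted p = 0.0085) with shSIRT3-2, the largest rise of any proteasome gene with shSIRT3-1, and 9 of 9 knockdown libraries of each shRNA lay above the mean of their line's controls.

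PSMB5, the subunit with chymotrypsin-like activity and the main target of proteasome inhibitor drugs, was 25.9, 24.8 and 27.4 CPM in the Karpas422 controls, 17.4, 18.2 and 16.5 with shSIRT3-1, and 30.2, 30.9 and 32.7 with shSIRT3-2. OCI-Ly1 had 49.8, 33.9 and 34.8 CPM with shCTRL, 43.2, 30.2 and 39.3 with shSIRT3-1, and 49.8, 50.7 and 47.9 with shSIRT3-2. In HBL1 it was 40, 37 and 40.8 CPM with shCTRL, 35.3, 35.1 and 23.3 with shSIRT3-1, and 52.7, 51.1 and 53.3 with shSIRT3-2. PSMB5 thus differed between the shRNAs: every shSIRT3-1 library lay below every shSIRT3-2 library of the same line. Over the lines it fell by 0.33 with shSIRT3-1 (SE 0.09, limma adjusted p = 0.0061) and rose by 0.34 with shSIRT3-2 (SE 0.09, adjusted p = 0.0052), and the difference between the shRNAs was 0.67 (SE 0.09, adjusted p = 6.1e-06). Against control in single lines, PSMB5 passed in Karpas422 alone (-0.58 and 0.26, limma adjusted p = 0.001 and 0.036). That rise was lost without any 1 of 6 libraries (0.062 to 0.095). HBL1 gave -0.35 and 0.42 (0.095 and 0.064), and OCI-Ly1 gave -0.06 and 0.35 (0.83 and 0.2).

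PSMB7, the subunit with trypsin-like activity, was 34.1, 35.3 and 33.1 CPM in the Karpas422 controls, 29.5, 28.8 and 31.8 with shSIRT3-1, and 32, 31.2 and 32.1 with shSIRT3-2. In OCI-Ly1 it was 49.8, 35.6 and 31.7 CPM with shCTRL, 46.2, 39.7 and 42.2 with shSIRT3-1, and 42.8, 38.4 and 41.1 with shSIRT3-2. In HBL1 it was 39.6, 37.5 and 33.6 CPM with shCTRL, 41.4, 39.8 and 39.7 with shSIRT3-1, and 45.5, 44.4 and 43.5 with shSIRT3-2. It was the flattest of the 3, with log2 fold changes of 0.03 and 0.08 over the lines, neither of which passed. In HBL1 it rose with shSIRT3-2 by 0.27 (SE 0.09, limma adjusted p = 0.038), a call lost without any 1 of 7 of the 9 libraries (adjusted p of 0.053 to 0.13).

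Among the other core genes, the alpha subunit PSMA1 fell with shSIRT3-1 (-0.24, SE 0.08, limma adjusted p = 0.024) and the beta subunit PSMB1 fell with shSIRT3-2 (-0.27, SE 0.09, adjusted p = 0.023). PSMA3, the alpha subunit with the largest mean change, was 0.18 with shSIRT3-1, which did not pass, and rose by 0.32 with shSIRT3-2 (SE 0.11, adjusted p = 0.021). PSMA7 (0.29) rose with shSIRT3-2 and PSMB4 (0.21) with shSIRT3-1. The call of PSMA7 was lost without any 1 of 7 libraries (adjusted p of 0.0502 to 0.065), that of PSMB4 without any 1 of 14 (0.051 to 0.1), and that of PSMB1 without OCI-Ly1 shCTRL replicate 1 (0.0501). PSMA1 and PSMB1 also differed between the shRNAs themselves, by 0.22 and -0.30.

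The cap showed the most rises. Of 11 non-ATPase subunits, 6 rose with shSIRT3-1 and 7 with shSIRT3-2 and none fell, with median log2 fold changes of 0.19 and 0.33. Of all genes tested, 15.6% and 16.3% rose and 22.3% and 21.7% fell. PSMD1, the scaffold at the base of the cap, was 51.9, 47.6 and 58 CPM in the Karpas422 controls against 80, 73.8 and 79.5 with shSIRT3-1 and 70.7, 70.9 and 63.5 with shSIRT3-2, without overlap. In HBL1 PSMD1 was 75.1, 70.6 and 61.5 CPM against 81.9, 80 and 86, and 87.2, 87.4 and 86.3, again without overlap. In OCI-Ly1 the controls were 125, 53.8 and 59.3 CPM, against 118, 100 and 103, and 99.4, 96.5 and 89.1, so that control replicate 1 alone lay above the knockdown libraries. Over the lines PSMD1 rose by 0.46 (SE 0.10, limma adjusted p = 0.0012) with shSIRT3-1 and by 0.36 (SE 0.10, adjusted p = 0.0079) with shSIRT3-2.

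The lid subunits PSMD3, PSMD11 and PSMD12 rose with both shRNAs, PSMD3 by 0.33 and 0.39, PSMD11 by 0.32 and 0.38, and PSMD12 by 0.36 and 0.33. PSMD8, another lid subunit, and PSMD2, the scaffold that docks ubiquitin-like domains, rose with shSIRT3-2 alone, by 0.49 (SE 0.10, limma adjusted p = 4.7e-04) and 0.47 (SE 0.10, adjusted p = 9.3e-04). Their difference between the shRNAs passed too, at 0.44 for PSMD8 and 0.28 for PSMD2. The ubiquitin receptor PSMD4 and PSMD6 rose with shSIRT3-1 by 0.20 and 0.15, close to the threshold (limma adjusted p of 0.046 and 0.044), and lost their calls without any 1 of 16 and of 14 libraries. PSMD14, the deubiquitinase of the lid, had no call over the lines. Of the 6 ATPases, which unfold the substrate, PSMC4 rose with shSIRT3-2 (0.30, SE 0.11, adjusted p = 0.032), a call lost without any 1 of 7 libraries (adjusted p of 0.053 to 0.069), and no other passed with either shRNA.

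PSMD13, a lid subunit called with shSIRT3-2 (0.29, SE 0.09, limma adjusted p = 0.011) and not with shSIRT3-1 (0.17), is the head-to-head neighbour of SIRT3 on chromosome 11 (hg19). Its MANE transcript starts at base 236976 on the plus strand, and that of SIRT3 starts at base 236342 on the minus strand, with 633 bases between them. SIRT3 fell by 2.45 and 1.37 on the log2 scale with shSIRT3-1 and shSIRT3-2.

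The proteasome inhibitor protein PSMF1 rose with both shRNAs, by 0.29 (SE 0.05, limma adjusted p = 5.2e-05) and 0.14 (SE 0.05, adjusted p = 0.027), and it differed between them by -0.15. The second call was lost without Karpas422 shCTRL replicate 2 (adjusted p = 0.06) or HBL1 shSIRT3-2 replicate 1 (0.051). Of the activators, PSME3, which forms the nuclear activator, rose with shSIRT3-2 (0.26, SE 0.08, adjusted p = 0.016). PSME4, the large single-chain activator and the gene of this class with the largest mean change, was 0.21 and 0.23, and neither passed over the lines. PSME1 and PSME2, which form the interferon-inducible activator, did not pass with either shRNA.

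Of the 7 assembly chaperones, 2 fell with each shRNA, where 22.3% and 21.7% of all genes fell, and their medians of -0.07 and -0.04 were near those of all genes (-0.05 and -0.03). PSMD10 (gankyrin), which guides the ATPases into the cap, was 24.3, 27 and 27.9 CPM in the Karpas422 controls, 17.8, 17.6 and 16.4 with shSIRT3-1, and 20.2, 21.2 and 21.4 with shSIRT3-2. In HBL1 PSMD10 was 29.1, 30.6 and 31.6 CPM with shCTRL, 23.5, 23.3 and 21.4 with shSIRT3-1, and 24.6, 23.5 and 25.1 with shSIRT3-2. In OCI-Ly1 it was 21.1, 17.7 and 16.6 CPM with shCTRL, 17, 15.5 and 18.3 with shSIRT3-1, and 19, 16.3 and 18 with shSIRT3-2. The groups did not overlap in Karpas422 or HBL1 and overlapped in OCI-Ly1. PSMD10 fell by 0.38 (SE 0.07, limma adjusted p = 8.2e-05) with shSIRT3-1, the largest fall with that shRNA, and by 0.23 (SE 0.07, adjusted p = 0.0083) with shSIRT3-2. PSMG2, which with PSMG1 starts the alpha ring, fell by 0.25 (SE 0.08, adjusted p = 0.014) and 0.23 (SE 0.08, adjusted p = 0.024). The fall of PSMG2 lost its call with shSIRT3-2 under median-ratio scaling (adjusted p = 0.051) and with both shRNAs under quantile normalization (0.084 and 0.063), and with shSIRT3-2 without Karpas422 shCTRL replicate 1 (0.055) or Karpas422 shSIRT3-2 replicate 3 (0.052). None of the 7 chaperones rose with either shRNA over the lines.

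Between the shRNAs themselves, 4 proteasome genes were higher (background 16.6%) and 3 lower (15.1%) with shSIRT3-2 than with shSIRT3-1. PSMB5, PSMD8, PSMD2 and PSMA1 were higher, and PSMA8 (-0.48), PSMB1 and PSMF1 were lower. The call of PSMA8 is over the lines, yet only OCI-Ly1 measures this gene above the floor. The difference of PSMD2 was lost without any 1 of 7 libraries (adjusted p of 0.054 to 0.08) and that of PSMA1 without any 1 of 15 (0.051 to 0.095). Under quantile normalization 2 genes were higher and 4 lower.

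**Figure D2:**
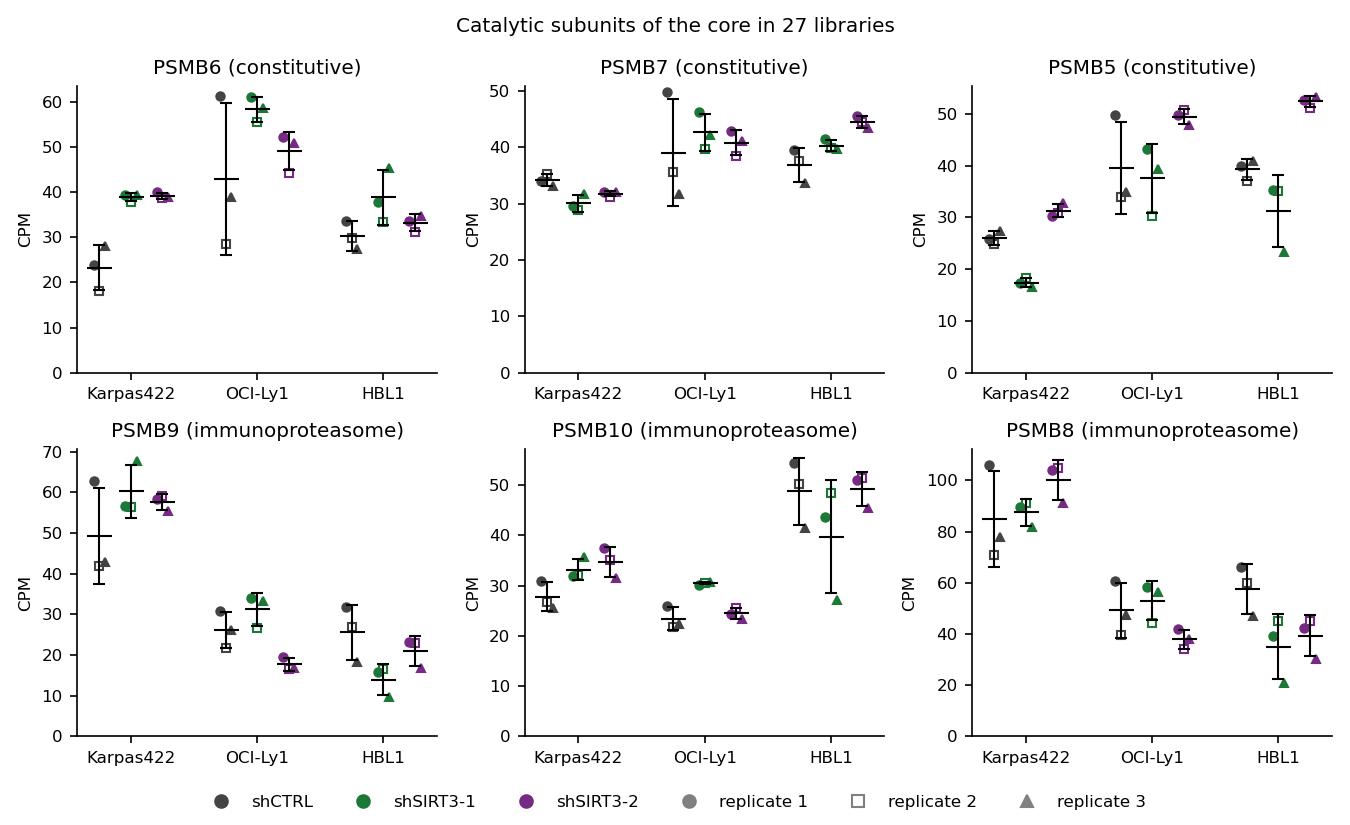
CPM of the 3 constitutive catalytic genes (upper row) and of the 3 immunoproteasome genes (lower row) in each of 27 libraries, with marker shape for the replicate number and the group mean ± SD (n = 3) in black. PSMB5 is lower with shSIRT3-1 than with shSIRT3-2 in every line, and PSMB8 and PSMB9 fall below most controls in HBL1 and, with shSIRT3-2, in OCI-Ly1.

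The immunoproteasome genes had no call over the 3 lines with either shRNA: PSMB8 was -0.20 and -0.22, PSMB9 -0.10 and -0.19, and PSMB10 0.11 and 0.14 (limma adjusted p of 0.28 to 0.68). Their responses differed between the lines, however (interaction F test in limma, adjusted p of 0.041 for PSMB8, 0.0024 for PSMB9 and 0.03 for PSMB10). In Karpas422 all 3 had positive log2 fold changes with both shRNAs (0.06 to 0.32), in HBL1 PSMB9 fell with shSIRT3-1, and in OCI-Ly1 PSMB9 fell with shSIRT3-2.

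PSMB9, which takes the place of PSMB6, was 62.8, 42 and 43 CPM in the Karpas422 controls, 56.6, 56.5 and 67.7 with shSIRT3-1, and 58.5, 59.1 and 55.4 with shSIRT3-2. In OCI-Ly1 it was 30.7, 21.7 and 26.1 CPM with shCTRL, 33.9, 26.6 and 33.2 with shSIRT3-1, and 19.6, 16.6 and 16.9 with shSIRT3-2. In HBL1 it was 31.7, 26.8 and 18.2 CPM with shCTRL, 15.7, 16.5 and 9.58 with shSIRT3-1, and 23.2, 22.9 and 16.8 with shSIRT3-2. The shSIRT3-2 libraries of OCI-Ly1 and the shSIRT3-1 libraries of HBL1 lay below every control of their line, and the remaining groups overlapped with control. PSMB9 fell by 0.55 (SE 0.15, limma adjusted p = 0.045) in OCI-Ly1 with shSIRT3-2 and by 0.87 (SE 0.26, adjusted p = 0.028) in HBL1 with shSIRT3-1. Neither fall kept its call when single libraries were left out. In HBL1 PSMB9 was -0.63 (adjusted p = 0.0502) without shSIRT3-1 replicate 3, -0.70 (0.1) without control replicate 1 and -0.82 (0.092) without control replicate 2. The first of these fits keeps control replicate 3, the lowest control at 18.2 CPM. In OCI-Ly1 the call was lost without any 1 of 7 of the 9 libraries (adjusted p of 0.063 to 0.15, with values of -0.43 to -0.63) and with no filter on low values (0.069). With the replicate number as a block the adjusted p of PSMB9 was 8.9e-04 in HBL1 and 0.011 in OCI-Ly1.

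PSMB8, which takes the place of PSMB5, was 106, 70.7 and 77.7 CPM in the Karpas422 controls, 89.6, 91.3 and 81.6 with shSIRT3-1, and 104, 105 and 91.2 with shSIRT3-2. OCI-Ly1 had 60.8, 39.4 and 47.5 CPM with shCTRL, 58.3, 44.1 and 56.5 with shSIRT3-1, and 41.7, 34.2 and 37.9 with shSIRT3-2. In HBL1 it was 66, 59.9 and 47 CPM with shCTRL, 39.1, 45.1 and 20.8 with shSIRT3-1, and 42.4, 45.1 and 30.2 with shSIRT3-2. All 6 knockdown libraries of HBL1 lay below the lowest control, yet the fit of HBL1 alone gave -0.78 (SE 0.29, limma adjusted p = 0.058) and -0.56 (SE 0.29, adjusted p = 0.16), which did not pass. Libraries of the same replicate number deviated together on average, and in HBL1 the replicate 3 libraries did so in every pair. Whether the numbers pair the other libraries is not settled. With the replicate number as a block PSMB8 fell in HBL1 with both shRNAs (limma adjusted p = 0.004 and 0.016). It also fell with the block in OCI-Ly1 with shSIRT3-2 (-0.36, adjusted p = 0.038, against 0.19 without the block). Without HBL1 shSIRT3-1 replicate 3 and without the block, PSMB8 in HBL1 was -0.44 with shSIRT3-1 (adjusted p = 0.092) and fell by 0.56 with shSIRT3-2 (adjusted p = 0.024). Without OCI-Ly1 shCTRL replicate 1 its OCI-Ly1 value with shSIRT3-2 was -0.19 (adjusted p = 0.38).

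PSMB10, which takes the place of PSMB7, was 31, 26.8 and 25.5 CPM in the Karpas422 controls, 31.8, 32.1 and 35.6 with shSIRT3-1, and 37.4, 35 and 31.6 with shSIRT3-2. OCI-Ly1 had 26, 21.8 and 22.3 CPM with shCTRL, 30.2, 30.6 and 30.7 with shSIRT3-1, and 24.4, 25.6 and 23.4 with shSIRT3-2. In HBL1 it was 54.5, 50.3 and 41.5 CPM with shCTRL, 43.6, 48.5 and 27.1 with shSIRT3-1, and 51.1, 51.4 and 45.4 with shSIRT3-2. Both Karpas422 knockdown groups and the shSIRT3-1 group of OCI-Ly1 lay above all controls of their line. PSMB10 rose by 0.32 (SE 0.10, limma adjusted p = 0.038) in Karpas422 with shSIRT3-2 and by 0.39 (SE 0.09, adjusted p = 0.039) in OCI-Ly1 with shSIRT3-1, a call lost under median-ratio scaling (adjusted p = 0.052). Leaving out any 1 of 6 libraries of Karpas422 (adjusted p of 0.056 to 0.13) or of 7 libraries of OCI-Ly1 (0.068 to 0.12) ended these calls.

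The balance between the immunoproteasome and the constitutive form was read as the ratio of each immunoproteasome gene to its counterpart, in reads per base of the MANE transcript, which does not depend on the scaling of a library. In the controls, PSMB8/PSMB5 lay at 2.63 to 3.81 in Karpas422, while the OCI-Ly1 controls reached 1.08 to 1.27 and those of HBL1 reached 1.07 to 1.53. With shSIRT3-1 the ratio was 4.6 to 4.79 in Karpas422, above every control, in the cells where PSMB5 had fallen, whereas with shSIRT3-2 it lay below every control in HBL1 (0.527 to 0.82) and OCI-Ly1 (0.628 to 0.778). The change of the mean log2 ratio against control was 0.65 in the first of these, -0.98 in HBL1 and -0.70 in OCI-Ly1.

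PSMB9/PSMB6 was 1.24 to 2.13 in the Karpas422 controls, and lower in those of HBL1 (0.541 to 0.762) and OCI-Ly1 (0.406 to 0.621). Its mean log2 value was below control in all 6 comparisons of line and shRNA, by 0.26 to 1.23. All 3 knockdown libraries lay below the lowest control in Karpas422 and OCI-Ly1 with shSIRT3-2 and in HBL1 with shSIRT3-1. PSMB10/PSMB7 rose above every control in Karpas422 with both shRNAs (0.764 to 0.916 in control, 1.08 to 1.13 with shSIRT3-1 and 0.992 to 1.18 with shSIRT3-2) and lay below every control in HBL1 with both (1.24 to 1.39 in control, 0.688 to 1.23 and 1.05 to 1.17). These ratios are given as a description, without a test.

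**Figure D3:**
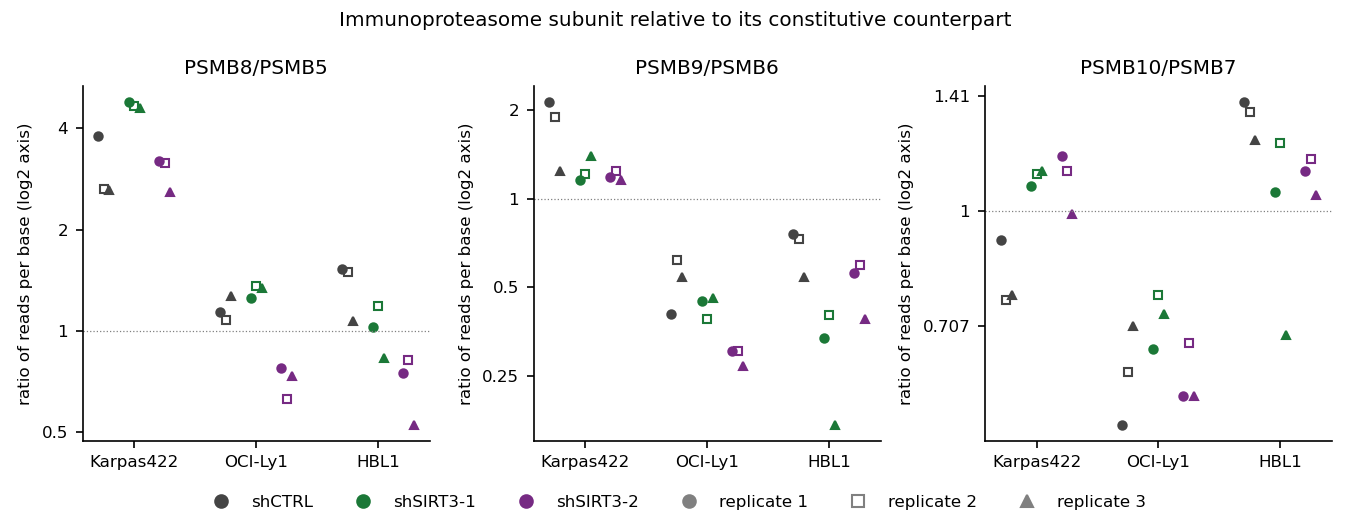
Ratio of each immunoproteasome gene to the constitutive gene it replaces, in reads per base of the transcript, in each of 27 libraries on a log2 axis; the dotted line marks a ratio of 1. PSMB8/PSMB5 reaches 4.6 to 4.79 in Karpas422 with shSIRT3-1 and drops below 1 in OCI-Ly1 and HBL1 with shSIRT3-2.

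Taken line by line, proteasome genes were called most often in Karpas422 and HBL1 and seldom in OCI-Ly1, where the spread of the controls was widest. Few calls did not mean values near 0. With shSIRT3-1 the median log2 fold change was 0.21 in OCI-Ly1 (42 of 47 genes above 0), 0.06 in Karpas422 and -0.10 in HBL1. With shSIRT3-2 it was 0.10 in OCI-Ly1 (36 of 47 above 0), 0.12 in Karpas422 and 0.21 in HBL1. The OCI-Ly1 medians depended on the control library left out. With shSIRT3-1 and shSIRT3-2 they were 0.38 and 0.28 without control replicate 1, and 0.07 and -0.02 without control replicate 3. In Karpas422, 46 genes were tested: 10 rose and 11 fell with shSIRT3-1 (background 11.6% and 22.2%), and 12 rose and 6 fell with shSIRT3-2 (14.7% and 16.4%). PSMB6 (0.76, SE 0.14, limma adjusted p = 0.0032), PSMD1 (0.57) and PSME1 (0.53) rose most with shSIRT3-1, although the call of PSME1 was lost without any 1 of 7 of the 9 libraries (adjusted p of 0.054 to 0.11), and PSMD10 (-0.61), PSMB5 (-0.58) and the deubiquitinase PSMD14 (-0.49) fell most. With shSIRT3-2 PSMB6 (0.77), PSMD8 (0.69) and PSMD2 (0.49) rose most, and PSMG2 (-0.55), PSMD14 (-0.44) and PSMB1 (-0.43) fell most. Of 11 non-ATPase genes of the cap, 5 rose and 1 (PSMD14) fell with shSIRT3-1, and 8 rose and 1 fell with shSIRT3-2. Of 6 ATPases, 3 fell with shSIRT3-1, and with shSIRT3-2 none was called, with 3 values above and 3 below 0. Without Karpas422 shSIRT3-1 replicate 1 the 21 calls with that shRNA became 13, and the 18 with shSIRT3-2 became 11 without control replicate 2 or without shSIRT3-2 replicate 1. The direction of the shSIRT3-1 calls shifted with the scaling, to 9 lower and 13 higher under median-ratio scaling, and to 7 and 14 under quantile normalization.

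In HBL1, 45 genes were tested: 7 rose and 4 fell with shSIRT3-1 (background 14.9% and 25.1%), and 16 rose and 2 fell with shSIRT3-2 (13.5% and 21.3%). The lid subunit PSMD12 was 28.3, 26.7 and 23.1 CPM in the controls, 40.2, 39.4 and 37.3 with shSIRT3-1, and 44.3, 43.6 and 41.6 with shSIRT3-2. It rose most with both shRNAs, by 0.58 (SE 0.10, limma adjusted p = 0.0021) and 0.73 (SE 0.10, adjusted p = 8.5e-04). PSME4 (0.51) and PSMB4 (0.48) followed with shSIRT3-1, and the ATPase PSMC5 and the chaperone PSMG1 (both 0.61) with shSIRT3-2. The falls were PSMB9, PSMA1 (-0.42), PSMD10 (-0.42) and PSMA4 with shSIRT3-1, and PSMB1 and PSMD10 (both -0.32) with shSIRT3-2. The last 2 calls were lost under median-ratio scaling (adjusted p of 0.10 and 0.098), where 20 genes rose and 0 fell. The call of PSMG1 was lost without control replicate 2 (0.075) or without control replicate 3, shSIRT3-2 replicate 1 or shSIRT3-2 replicate 2 (0.11 each). The median of all genes was -0.11 with shSIRT3-1 and 0.04 under quantile normalization, where 11 proteasome genes rose and 3 fell, and under median-ratio scaling 10 rose and 2 fell. With the replicate number as a block, a pairing that the labels do not state, 8 rose and 9 fell with shSIRT3-1. The 11 calls with shSIRT3-1 became 4 without control replicate 2 and 7 without control replicate 1 or without shSIRT3-2 replicate 1 or 2, and the 18 with shSIRT3-2 became 8 without control replicate 2 or shSIRT3-2 replicate 1 or 2, and 10 without shSIRT3-2 replicate 3.

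In OCI-Ly1, 47 genes were tested: 1 rose and 0 fell with shSIRT3-1 (background 3.65% and 3.66%), and 0 rose and 2 fell with shSIRT3-2 (3.81% and 5.60%). At an unadjusted p under 0.05 limma gave 5 rises and 0 falls with shSIRT3-1 and 1 rise and 2 falls with shSIRT3-2, and edgeR called 1 and 0, and 0 and 2. Without control replicate 1, whose proteasome genes lay high, the fit gave 28 rises and 0 falls with shSIRT3-1 and 16 rises and 1 fall with shSIRT3-2. In that fit PSMD1 rose by 0.92 and 0.75, PSMB6 by 0.81 and 0.56, and PSMB5 by 0.52 with shSIRT3-2. Without control replicate 3, whose proteasome genes lay low, the fit gave 0 rises and 0 falls with shSIRT3-1, and 0 rises and 1 fall with shSIRT3-2. Which of the control libraries represents the line was not tested. The single rise, PSMB10, was lost without any 1 of 7 of the 9 libraries, and with the replicate number as a block the calls were 2 and 3.

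**Figure D4:**
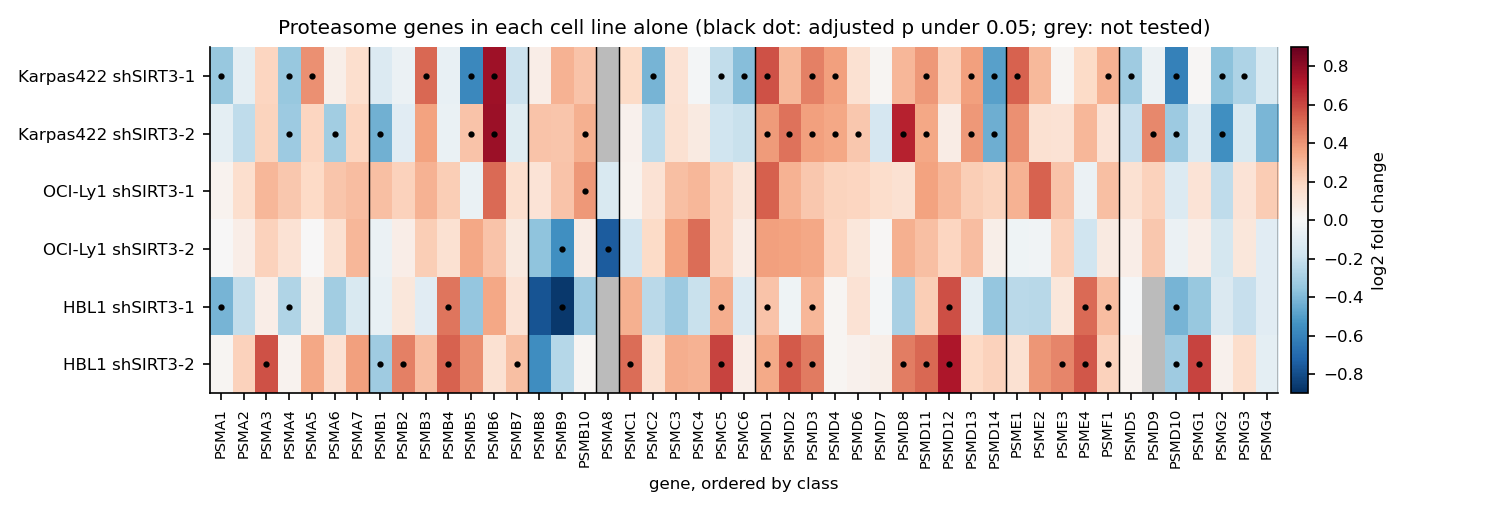
Log2 fold change of each tested proteasome gene against shCTRL in each line alone, colour from blue (lower) to red (higher); a black dot marks an adjusted p under 0.05 and grey marks genes below the filter in that line. PSMB6 and the cap scaffolds are red in Karpas422, PSMB8 and PSMB9 are blue in HBL1, and OCI-Ly1 has 3 dots.

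The test of the difference between lines was passed by 14 of 47 proteasome genes (29.8%), against 41.8% of all genes. The 5 with the smallest p were PSMB9, PSMD14, PSMG1, PSMA6 and PSME4 (adjusted p of 0.0024, 0.0052, 0.0072, 0.017 and 0.019). PSMD14 fell in Karpas422 with both shRNAs (-0.49 and -0.44) and was -0.35 and 0.21 in HBL1, and 0.20 and 0.05 in OCI-Ly1. PSMG1 rose in HBL1 with shSIRT3-2 (0.61) and was -0.34 there with shSIRT3-1. PSMA6, an alpha subunit, fell in Karpas422 with shSIRT3-2 (-0.31). PSME4 rose in HBL1 with both shRNAs (0.51 and 0.56) and was -0.05 and -0.18 in OCI-Ly1. Without OCI-Ly1 shCTRL replicate 1 the count became 35, and it became 9 without OCI-Ly1 shSIRT3-1 replicate 1 or 3, HBL1 shCTRL replicate 2 or HBL1 shSIRT3-2 replicate 1. The edgeR test on reads recovered from the CPM gave 9.

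The lines differed in their proteasome genes with the control shRNA, most of all in 2 genes that were near 0 in some lines. The study's methods give Iscove's medium for OCI-Ly1 and RPMI with L-glutamine for Karpas422 and HBL1. Line and medium therefore cannot be told apart in comparisons with OCI-Ly1. PSMD9, a chaperone that helps place the ATPases, was 37.1, 29.4 and 37.1 CPM in the Karpas422 controls, 39.8, 30.1 and 33.3 in OCI-Ly1, and 0 in all 3 controls of HBL1. In reads, HBL1 held 0 in 7 of its 9 libraries, 10 in shSIRT3-1 replicate 1 and 2 in shSIRT3-2 replicate 3, where the other lines held 2725 to 5424. Taking 3 reads in the shallowest HBL1 control as the most that a count of 0 allows (0.0472 CPM, counting error only), PSMD9 was at least 732-fold higher in Karpas422 and at least 729-fold higher in OCI-Ly1. PSMA8, the alpha subunit of the testis proteasome (chr18:23713816-23773319, hg19, plus strand), was 24.7, 24.9 and 20.7 CPM in the OCI-Ly1 controls, 119-fold the mean of the Karpas422 controls, which held 13 to 28 reads, while the HBL1 controls held 1 to 4 reads. Its fall with shSIRT3-2 was measured where the gene is expressed: in OCI-Ly1 it was 16.3, 11.6 and 14.1 CPM with shSIRT3-2, below every control, and it fell by 0.75 (SE 0.15, limma adjusted p = 0.021). PSMA8 lost that call without control replicate 2 (-0.70, adjusted p = 0.056), shSIRT3-2 replicate 2 (-0.62, adjusted p = 0.076) or shSIRT3-2 replicate 3 (-0.76, adjusted p = 0.061). With shSIRT3-1 it was 21.3, 18.4 and 24 CPM, within the range of the controls or just below it.

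PSMG2 was 14.6, 13.6 and 11 CPM in the HBL1 controls against 45, 42.2 and 40.3 in Karpas422 and 45.7, 50.3 and 37.9 in OCI-Ly1, lower by 1.70 and 1.76 on the log2 scale (SE 0.14, limma adjusted p of 1.3e-06 and 1.1e-06). PSMG4, which pairs with PSMG3 in another alpha-ring chaperone, was lower in HBL1 by 1.55 and 1.41. In all, 10 genes were higher and 16 lower in HBL1 than in Karpas422 (background 31.4% and 36.4%), 9 higher and 8 lower in HBL1 than in OCI-Ly1 (35.6% and 31.7%), and 11 higher and 7 lower in Karpas422 than in OCI-Ly1 (35.4% and 28.2%). HBL1 exceeded Karpas422 most in PSMC3, PSMD13 and PSMD8 (0.98, 0.97 and 0.97), and it exceeded OCI-Ly1 most in PSMB10 (1.05), PSMC6 (1.04) and PSMD7 (0.89). Karpas422 exceeded OCI-Ly1 most in the activator gene PSME1 (1.24), PSMA6 (1.22) and PSME2 (1.20), with PSMB9 0.90 and PSMB8 0.78 higher. It lay below OCI-Ly1 most in PSMA8, PSMA2 (-0.88) and PSMB6 (-0.83). The PSMB6 call was lost without Karpas422 shCTRL replicate 2 (-0.65, limma adjusted p = 0.067) and without replicate number 1 of every group (-0.56, adjusted p = 0.089), and without OCI-Ly1 shCTRL replicate 1 alone the value was -0.53 (adjusted p = 0.047). The split moved with the scaling, to 14 higher and 14 lower under median-ratio scaling for the first pair, and to 6 and 10 for the second and 10 and 11 for the third under edgeR. Without OCI-Ly1 shCTRL replicate 1 the 17 differences between HBL1 and OCI-Ly1 became 26.

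**Figure D5:**
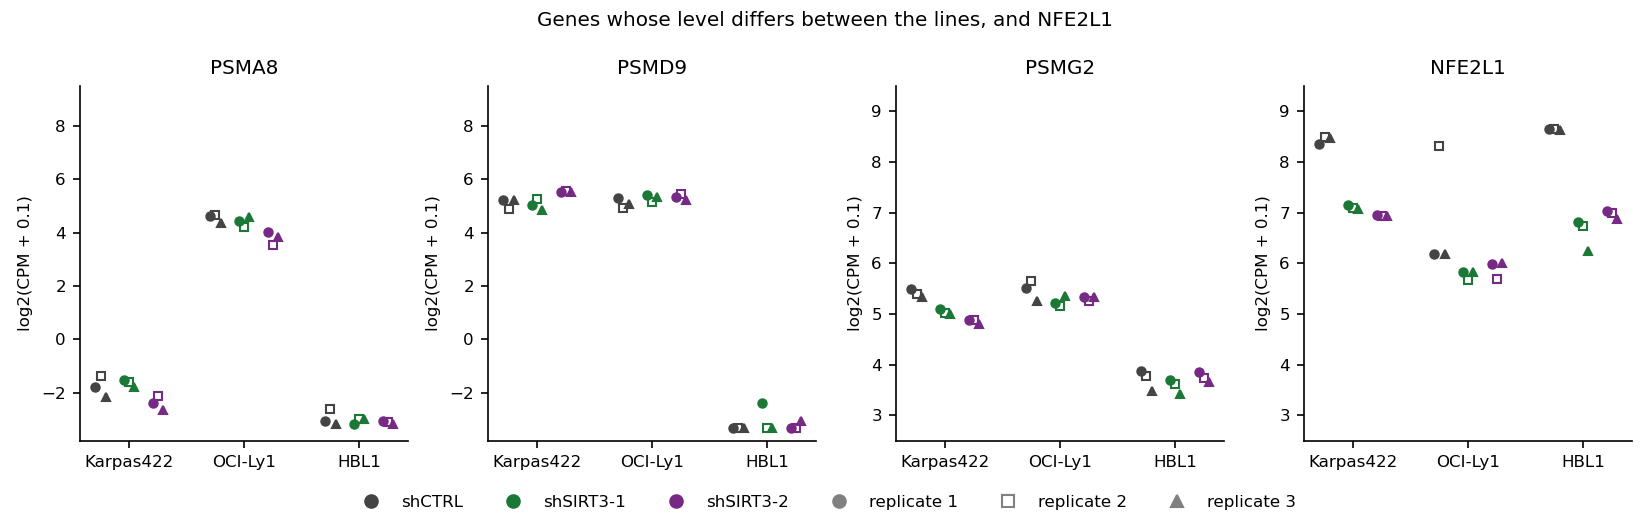
Log2(CPM + 0.1) of PSMA8, PSMD9, PSMG2 and the transcription factor gene NFE2L1 in each of 27 libraries by line, colour for the shRNA and shape for the replicate number. PSMA8 is high in OCI-Ly1, PSMD9 lies near the floor in HBL1 and PSMG2 is lowest there, and NFE2L1 is lower with both shRNAs, with OCI-Ly1 control replicate 2 apart from the other controls of its line.

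Levels between genes were compared in the controls as CPM per kilobase of MANE transcript. The order was led in Karpas422 by PSME1 (178 ± 50.6, SD, n = 3), PSMB4 (102 ± 3.13) and PSMB1 (85.3 ± 2.00). In OCI-Ly1 PSMB4 (112 ± 23.2), PSMB1 (98 ± 33.5) and PSMA7 (89.7 ± 28.9) led, which overlap within their spread, and in HBL1 PSME1 (111 ± 11.5), PSMB4 (96 ± 6.03) and PSMA7 (92.1 ± 10.5). Of the catalytic genes, PSMB8 was the highest in Karpas422 (75.5 ± 16.7) and in HBL1 (51.3 ± 8.63, beside PSMB10 at 49.9 ± 6.81), and in OCI-Ly1 PSMB6 (52 ± 20.4) and PSMB8 (43.8 ± 9.62) did not differ beyond their spread. PSMC1, although a subunit of every cap, stood lowest in HBL1, at 0.212 ± 0.0174, with 0.305 ± 0.00819 in OCI-Ly1 and 0.366 ± 0.0423 in Karpas422, against ATPase medians of 30, 30.4 and 22.3 in the same order. It is the gene with 13 named pseudogenes, and the part of multi-mapping reads in its level was not tested.

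Genes around the proteasome were read from fixed lists. NFE2L1, which drives proteasome genes under proteasome stress, was 326, 358 and 353 CPM in the Karpas422 controls, 142, 137 and 135 with shSIRT3-1, and 124, 123 and 122 with shSIRT3-2. In HBL1 it was 401, 402 and 395 CPM with shCTRL, 113, 106 and 75.9 with shSIRT3-1, and 131, 127 and 118 with shSIRT3-2. In OCI-Ly1 NFE2L1 was 72.9, 318 and 72.9 CPM with shCTRL, 56.8, 51 and 56.4 with shSIRT3-1, and 63.1, 51.5 and 64.3 with shSIRT3-2. Every knockdown library lay below every control of its line, by a wide gap in Karpas422 and HBL1 and by a narrow one from 2 of the 3 controls in OCI-Ly1. Over the lines NFE2L1 fell to 0.355 of control with shSIRT3-1 (SE 0.19 on the log2 scale, limma adjusted p = 2.0e-06) and to 0.382 with shSIRT3-2 (log2 fold change -1.39, SE 0.19, adjusted p = 5.6e-06). Without OCI-Ly1 shCTRL replicate 2 it fell by 1.34 and 1.23 on the log2 scale. The fall passed in Karpas422 (-1.32 and -1.49) and HBL1 (-2.04 and -1.67), and not in OCI-Ly1 alone (-1.12 with shSIRT3-1, and -0.41 and -0.30 without that library).

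Of the other transcriptional regulators, NLRC5, which drives MHC class I genes, rose with shSIRT3-1 by 0.92 (SE 0.13, limma adjusted p = 9.3e-06) and was 0.04 with shSIRT3-2. IRF1 (-0.04 and 0.23), which carries interferon signals, did not pass with either shRNA. Of 9 genes of class I presentation, 1 fell and 0 rose with shSIRT3-1 over the lines, where 22.3% of all genes fell and 15.6% rose. With shSIRT3-2 limma called 0, with 1 higher at an unadjusted p under 0.05, where 21.7% of all genes fell and 16.3% rose. In Karpas422 alone 4 of these 9 rose with shSIRT3-1 and 5 with shSIRT3-2 (11.6% and 14.7% of all genes). In HBL1 alone 2 fell with shSIRT3-1 (25.1% of all genes), and 1 rose and 1 fell with shSIRT3-2 (13.5% and 21.3%). In OCI-Ly1 alone 1 fell with shSIRT3-2 (5.60%).

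Of 11 proteasome partners outside the symbol rule, 3 rose and 3 fell with shSIRT3-1, and 5 rose and 2 fell with shSIRT3-2, where 15.6% and 22.3% of all genes rose and fell with the first and 16.3% and 21.7% with the second. UBE3C, a ubiquitin ligase bound to the proteasome, rose by 0.88 and 0.33, the maturation factor POMP by 0.43 and 0.40, and the ubiquitin receptor ADRM1 by 0.46 and 0.31, while the proteasome-bound thioredoxin TXNL1 fell by 0.39 and 0.42. UBA1, the main ubiquitin-activating enzyme, rose by 0.32 and 0.30, and the segregase VCP, which hands ubiquitinated proteins to the proteasome, rose by 0.44 and 0.63.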

How the data were processed

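RNA from 27 libraries (3 lines, 3 shRNAs, 3 replicates) was prepared with a TruSeq kit. Per the labels and the study's methods the authors aligned paired-end reads to hg19 with STAR and counted them per RefSeq gene. The deposited values, named FPKM, were whole multiples of 1 step per library with no gene-length term, so they were used as CPM of a library total that the authors do not name, and the tests planned for FPKM, on log2(value + 0.1), were kept. The members and gene lists were chosen with earlier results of these data known.

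Fits used limma 3.58.1 in R 4.3.3 with a mean-variance trend, on genes with at least 1 CPM in at least 3 fitted libraries, with Benjamini-Hochberg adjustment over all genes. The fit over 27 libraries had line and shRNA as terms. A second had their interaction, each line was fitted alone, and the controls were compared between lines. The rule for named genes took SIRT3, the 6 catalytic genes, the 3 largest called rises and falls of each comparison, the largest mean change of each class, the 5 smallest interaction p-values, and up to 4 genes a list called with both shRNAs, with NFE2L1, IRF1, NLRC5 and others, some of which are not reported here. All others, such as the remaining called genes, PSMC1 and the antisense genes, were named after their values were seen. Alternatives were pseudocounts of 1 and 0.01, no filter, median-ratio and quantile scaling, the replicate number as a block, edgeR 4.0.16 on reads recovered from the CPM, and leaving out each library or replicate number. Deviations from group means correlated between same-numbered libraries by 0.398 on average in HBL1, 0.271 in OCI-Ly1 and 0.291 in Karpas422. Between differently numbered libraries the averages were -0.163, -0.126 and -0.128. Single pairs overlapped: same-numbered ones went down to 0.217, 0.109 and 0.014, and differently numbered ones up to 0.347, 0.322 and 0.264. In HBL1 and Karpas422 the replicate 3 libraries deviated together (0.439 to 0.498 and 0.247 to 0.492). Their pairs with replicates 1 and 2 of the other shRNAs were all negative there. Pairs of replicate 1 with replicate 2 were positive in these lines (0.253 to 0.347 and 0.02 to 0.264). Replicate 3 thus shared a deviation in HBL1 and Karpas422. Whether the numbers pair the other libraries is not settled, and block fits are given beside those without a block. Scripts were tested on simulated data. No libraries were identical. Depth was 28694398 to 53405456 reads on genes, and intervals and floors cover counting error only.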

Additional observations from a re-analysis of the deposited data

Results flagged for a closer look

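For 14 proteasome genes the 3 lines responded unequally to the shRNAs by the interaction test in limma (Benjamini-Hochberg adjusted p over all genes), where 41.8% of all genes passed. PSMB9 had an adjusted p of 0.0024, PSMB10 of 0.03 and PSMB8 of 0.041, so that all 3 immunoproteasome genes were among them. In the core, PSMA6 (0.017), PSMB4 (0.026) and PSMA4 (0.033) passed, and in the cap PSMD14 (0.0052) and PSMC5 (0.021). The activator genes were PSME4 (0.019), PSME1 (0.026) and PSME2 (0.041), and the chaperones PSMG1 (0.0072), PSMG2 (0.037) and PSMD10 (0.041). The count rose to 35 without OCI-Ly1 shCTRL replicate 1.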

How the results depend on the processing

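Most counts stayed within 1.5 times their main value under the other pseudocounts, filters, scalings and tests. Rises with shSIRT3-1 over the lines went from 9 to 15 under quantile normalization. In OCI-Ly1 alone, the single call with shSIRT3-1 became 0 under median-ratio scaling and 2 under quantile normalization, and the 2 calls with shSIRT3-2 became 1 with no filter. Genes whose response differed between lines numbered 9 with edgeR, against 14. The causes were not tested. With the replicate number as a block, the calls with shSIRT3-1 became 17 in HBL1, against 11, and 2 in OCI-Ly1. No called proteasome gene reversed its direction under any alternative run.

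Leaving out 1 library or 1 replicate number moved the counts more. Over the lines, falls ranged from 2 to 8 with shSIRT3-1 and 0 to 5 with shSIRT3-2, and rises from 4 to 15 and 3 to 22. Calls ranged from 2 to 22 and 0 to 25 in Karpas422, 0 to 28 and 0 to 17 in OCI-Ly1, and 0 to 26 and 0 to 28 in HBL1. The shRNAs differed in 2 to 10 genes, and the interaction in 0 to 35. Between controls the ranges were 18 to 29 (HBL1 and Karpas422), 13 to 26 (HBL1 and OCI-Ly1) and 12 to 21 (Karpas422 and OCI-Ly1). PSMD1, PSMD3, PSMD11, PSMD12, PSMB6, PSMD10 and PSMB5 kept their calls over the lines with both shRNAs without any 1 of the 27 libraries. Fits that leave 2 libraries in a group rest on few samples, and depth limits only PSMA8, PSMD9 and PSMB11, at or near 0 reads in some lines.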
